A study of Rattus norvegicus with 2 samples.

Results

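Matrix metalloproteinases, their inhibitors and the plasminogen activators were examined in small mesenteric arteries of rats with prehepatic portal hypertension. The set holds 9 genes, of which 5 encode proteases (Mmp2, Mmp9, Mmp14, Plat and Plau) and 4 encode inhibitors (Timp1, Timp2, Timp3 and A2m). Every probe set annotated with 1 of these symbols alone was taken, which gave 16 of the 8799 probe sets of an Affymetrix rat array, the RG U34A. The portal hypertension group was 1 pool of total RNA from first and second order arteries of 20 rats whose portal vein had been partly ligated, a model in which the block lies before the liver. The sham group was 1 pool from 20 sham-operated rats. The labels give no strain, age or time after surgery. Each pool was read on 1 array, so the comparison has no replicates and no test, and a difference compares these 2 pools only.

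Matrix metalloproteinases are zinc enzymes, secreted or held at the cell surface, that cut collagens, elastin and other matrix proteins. Most are made as inactive precursors, so the mRNA level and the enzyme activity need not go together. The tissue inhibitors of metalloproteinases, or TIMPs, block the active site, and the same Timp2 protein also helps Mmp14 to activate the Mmp2 precursor at the cell surface. The plasminogen activators encoded by Plat and Plau turn plasminogen into plasmin, which dissolves fibrin and can activate metalloproteinase precursors. Alpha-2-macroglobulin, the product of A2m, traps proteases of several classes, and in the rat the liver makes it in large amounts during the acute phase response. In arteries these genes are known for their part in wall remodelling when pressure or flow changes.

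The log2 ratios of these genes, portal hypertension over sham, lay between -0.48 and 0.48 on every probe set with a value. Of the 16 probe sets, 11 lay above a floor of 330.9 intensity units in both pools, 1 in the portal hypertension pool only and 4 in neither. The floor was the 40th percentile of all signals other than controls, and lower signals were set to it before log2 ratios of portal hypertension over sham were taken. Among the 11 probe sets measured in both pools, 0 were at least 1.5-fold higher and 0 were at least 1.5-fold lower in the portal hypertension pool. The 12th, A2m M23566exon_s_at, has only a lower limit of 1.39-fold upward, which leaves its side of the threshold unsettled, and with a lower floor or none it passed at a log2 ratio of 0.66. The threshold of 1.5-fold was passed by 9.63% of all 5527 probe sets above the floor in at least 1 pool, 3.55% upward and 6.08% downward. A count of 0 among so few probe sets is near that share, so it is no result about these genes. At 2-fold and the same floor the members' count was also 0, against 1.66% of those 5527. Of the 12 log2 ratios, 7 lay above 0 and 5 below it.

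The size of a difference can be set against the disagreement between probe sets that read the same gene. Over 1801 probe sets of 789 genes measured on both arrays, log2 ratios scattered around their gene's mean with an SD of 0.30. The SD was 0.37 at low level (a mean signal of both pools up to 1256.6), 0.28 at middle level (up to 4081) and 0.22 at high level. This scatter comes from the same 2 pools and holds nothing of the variation between rats. It describes single probe sets and is named below as the scatter between probe sets.

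**Figure D1:**
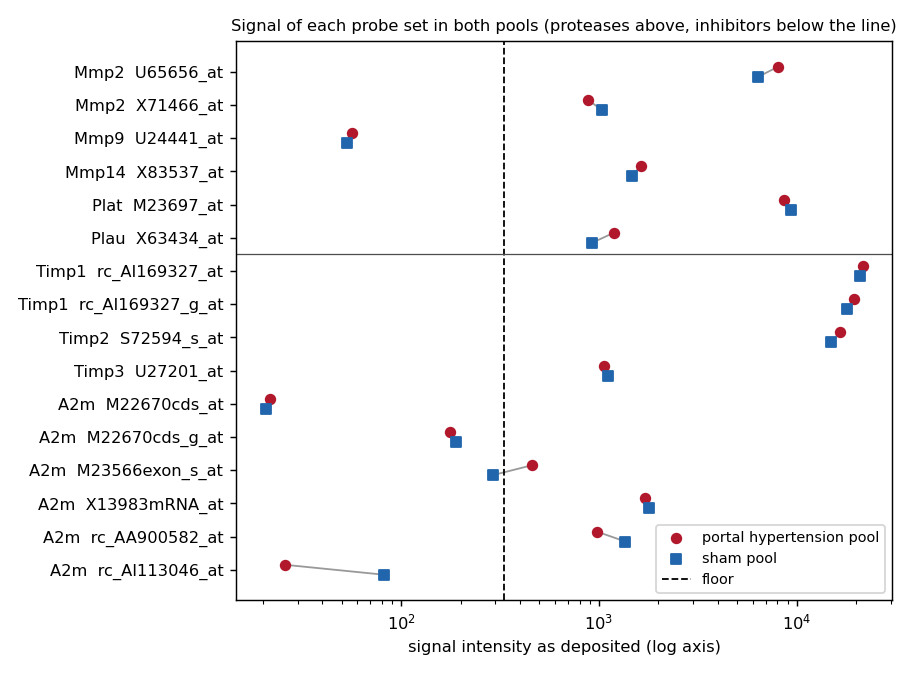
Signal intensity as deposited (horizontal log axis) of the 16 probe sets in the portal hypertension pool (circles) and the sham pool (squares), with the proteases above and the inhibitors below the solid line. The dashed line is the floor of 330.9, and circle and square lie close together for most probe sets. Positions of different probe sets on this axis are no comparison of mRNA amounts, since each probe set has its own response.

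The gelatinase gene Mmp2, whose product cuts denatured collagen and basement membrane collagen, gave opposite answers on its 2 probe sets. Probe set U65656_at had a signal of 8052.2 in the portal hypertension pool and 6403.9 in the sham pool, a log2 ratio of 0.33. Probe set X71466_at had 881.3 in the portal hypertension pool and 1036.7 in the sham pool, a log2 ratio of -0.23. The first was outside and the second inside 1 SD of the scatter between probe sets, so the direction for Mmp2 was not settled. The median of both ratios was 0.05. Of the 4960 probe sets measured on both arrays, 11.7% had a ratio at least as high as that of U65656_at.

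Mmp14 encodes the membrane-bound metalloproteinase that activates the Mmp2 precursor. Its single probe set had 1624.8 in the portal hypertension pool and 1463.8 in the sham pool, a log2 ratio of 0.15, which is inside the scatter between probe sets. Mmp9, the other gelatinase gene, much used as a marker of neutrophils and activated macrophages, had signals of 56.3 in the portal hypertension pool and 53.4 in the sham pool. Both lie below the floor, so no ratio is given for Mmp9, and these data do not show whether it differed at low levels. Of 7 listed neutrophil markers, 2 had a probe set and a value, with a summed signal of 3299.3 in the portal hypertension pool and 3103.3 in the sham pool, 1 above 0 and 1 below it, and their part in the Mmp9 signals was not tested.

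The plasminogen activators went opposite ways by small amounts. Plau, the urokinase gene, had a signal of 1191.2 in the portal hypertension pool and 926.1 in the sham pool. Its log2 ratio of 0.36, or 1.29-fold, was the highest of the 11 member ratios measured in both pools, and 9.66% of the 4960 measured probe sets had a ratio at least as high. Its mean signal counts as low level, where the scatter between probe sets was 0.37, so the Plau difference was about as large as that scatter. Plat, the tissue plasminogen activator gene, known as a product of endothelium, had 8660 in the portal hypertension pool and 9407.9 in the sham pool, a log2 ratio of -0.12. That value is inside the scatter of 0.22 for probe sets of high level.

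Beside the Plat value stand the endothelial markers. Of 8 listed genes, 5 had a probe set and 3 had a value. All 3 were below 0, with a median log2 ratio of -0.78. At least 1.5-fold lower were 2 of the 3, against 5.04% of the 3351 genes with a value. The summed signal of the 5 genes was 6434.5 in the portal hypertension pool and 8050.4 in the sham pool. It covers 11 probe sets, of which 5 lay above the floor in at least 1 pool. Vwf and Kdr, which define endothelium, were below the floor in both pools. In RNA from whole arteries, fewer cells of a type and less RNA per cell cannot be told apart, and the part of endothelium in the Plat value was not tested.

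The 3 TIMP genes had log2 ratios between -0.06 and 0.15. Timp1, an inhibitor gene known to be induced by growth factors and inflammatory cytokines, was read by 2 probe sets made from the same database sequence. Probe set rc_AI169327_at had 21565.6 in the portal hypertension pool and 20843.3 in the sham pool, and rc_AI169327_g_at had 19460.6 in the portal hypertension pool and 18007.7 in the sham pool. Their log2 ratios were 0.05 and 0.11, both inside the scatter for probe sets of high level. Since the 2 share their source sequence, their likeness is no independent support.

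Timp2, whose product bridges Mmp14 and the Mmp2 precursor, had 16613.7 in the portal hypertension pool and 14949.1 in the sham pool, a log2 ratio of 0.15. Timp3, which encodes the TIMP that stays bound to the matrix, had 1067.9 in the portal hypertension pool and 1117.1 in the sham pool, a log2 ratio of -0.06. Neither was outside the scatter between probe sets.

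**Figure D2:**
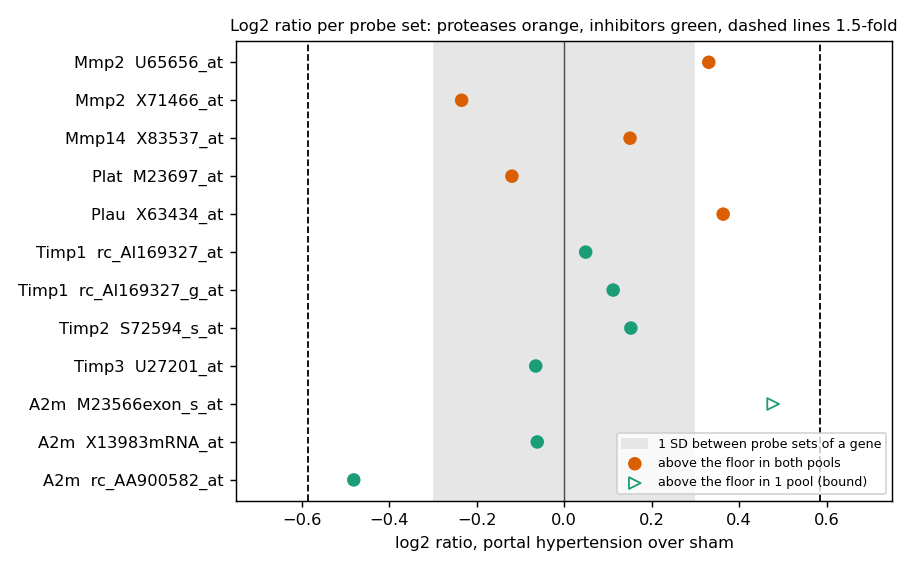
Log2 ratio of portal hypertension over sham (horizontal axis) for the 12 probe sets above the floor in at least 1 pool, with proteases in orange and inhibitors in green. The grey band is 1 SD of the scatter between probe sets of a gene (0.30) and the dashed lines are 1.5-fold. Points run from -0.48 to 0.48, none reaches a dashed line, and the open triangle is a bound.

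A2m was read by 6 probe sets that gave different answers. Probe set X13983mRNA_at had 1718.4 in the portal hypertension pool and 1793.2 in the sham pool, a log2 ratio of -0.06. Probe set rc_AA900582_at had 975.6 in the portal hypertension pool and 1361.4 in the sham pool, a log2 ratio of -0.48. That is outside 1 SD of the scatter at low level, and 8.71% of the 4960 measured probe sets had a ratio at least as low. Probe set M23566exon_s_at had 460.7 in the portal hypertension pool and 291.6 in the sham pool, where it was below the floor, which bounds the difference at 1.39-fold or more upward. So the A2m probe sets with a value pointed both ways, but the upward side rests on this bound alone. The 2 probe sets measured in both pools lay below 0. With the floor at the 60th percentile, or without probe sets that may share sequence, M23566exon_s_at dropped out and A2m had -0.27.

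The other 3 A2m probe sets gave signals under the floor on both arrays. Probe set M22670cds_at had 21.8 in the portal hypertension pool and 20.7 in the sham pool. Probe set M22670cds_g_at had 176.5 in the portal hypertension pool and 188.8 in the sham pool. Probe set rc_AI113046_at had 25.8 in the portal hypertension pool and 82 in the sham pool, signals at which no ratio is read here. The median log2 ratio of A2m over its 3 probe sets with a value was -0.06, and the direction for A2m was not settled. Markers of hepatocytes, the main source of A2m in the acute phase, had a summed signal of 3221.4 in the portal hypertension pool and 3352.8 in the sham pool over 15 probe sets. Only 5 of these 15 probe sets lay above the floor in at least 1 pool. Of the 7 listed hepatocyte genes, 6 had a probe set and 5 a value, 4 above 0, with a median of 0.12, while Fgb was below the floor. Their part in the A2m signals was not tested.

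**Figure D3:**
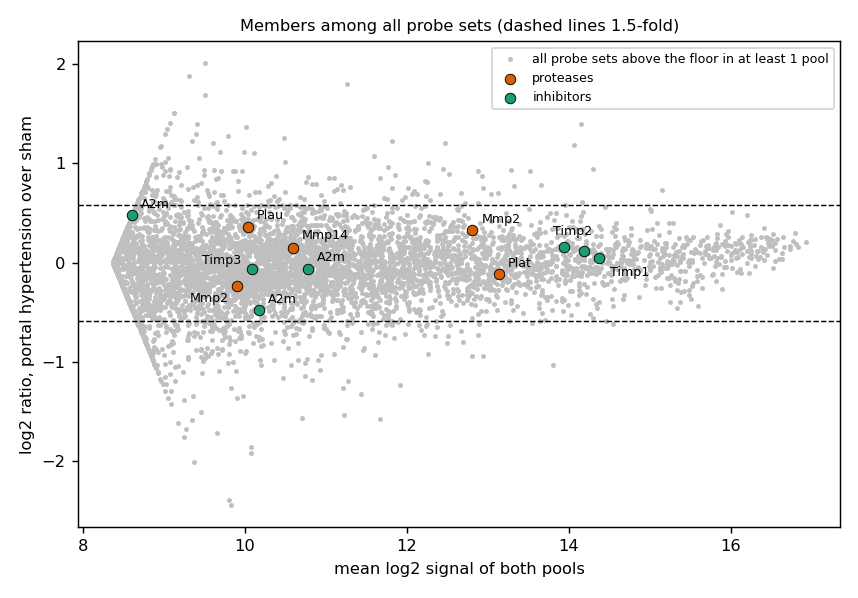
Log2 ratio of portal hypertension over sham (vertical axis) against the mean log2 signal of both pools (horizontal axis) for the 5527 probe sets above the floor in at least 1 pool (grey), with the 12 member probe sets coloured. All members lie between the dashed 1.5-fold lines, inside the cloud of other probe sets, and the cloud is wider at low signal.

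Proteases and inhibitors were set against each other by gene. The 4 proteases with a value (Mmp2, Mmp14, Plat and Plau) had a median log2 ratio of 0.10, with 3 above 0 and 1 below it. The 4 inhibitors had a median of 0.01, with 2 above 0 and 2 below it. The median over all 3351 genes with a value was -0.02. The protease median minus the inhibitor median was 0.09. It ran from 0.07 to 0.25 under the other processing settings, of which centring on the spike-in controls cannot change it. These medians rest on 4 genes each and have no error of their own, so they do not settle whether the balance between proteases and inhibitors differed.

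Proteases were also paired with inhibitors that act on them, because a difference of 2 log2 ratios does not depend on the overall scaling of an array. For Mmp14 and Timp2 the log2 ratio of the protease minus that of the inhibitor was 0.00, with 0.15 for each of the genes. For Mmp2 and Timp2 it was 0.18 with probe set U65656_at and -0.39 with X71466_at. For Mmp2 and Timp3 it was 0.40 and -0.17 with the same probe sets, and for Mmp14 and Timp3 it was 0.22. The sign of the Mmp2 pairs was thus set by the choice of the Mmp2 probe set. Serpine2, an inhibitor of thrombin and of both plasminogen activators, had 4949 in the portal hypertension pool and 5615.6 in the sham pool. Its log2 ratio of -0.18 left differences of 0.06 for Plat and 0.55 for Plau. The value for Plau and Serpine2 was the widest of the 8 pairs computed, and no pair reached 1.5-fold.

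**Figure D4:**
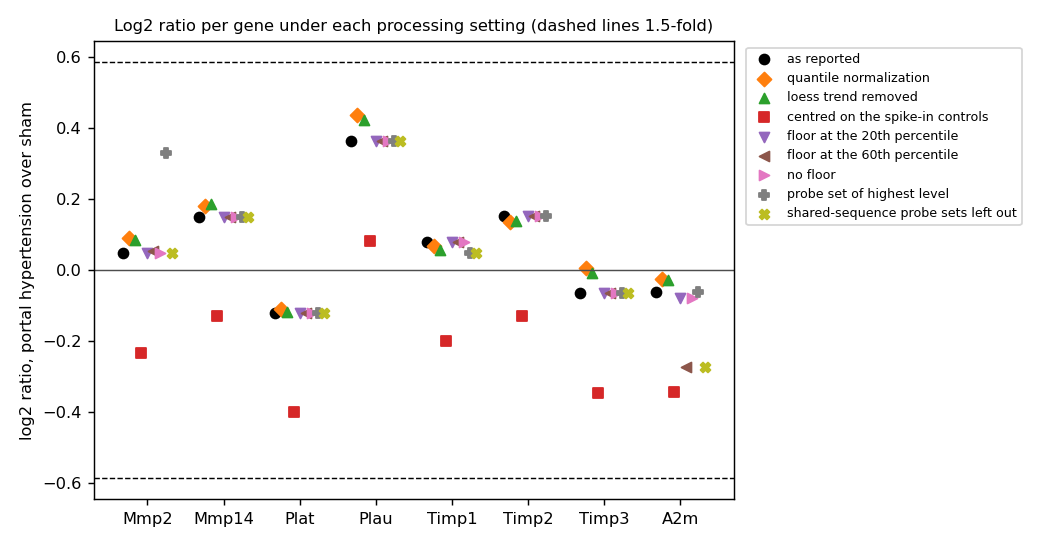
Log2 ratio per gene of portal hypertension over sham (vertical axis) for the 8 members with a value, under the reported processing (black) and under 8 other settings (symbols; 7 for Timp2, whose probe set is left out of the last), with dashed lines at 1.5-fold. No symbol reaches a dashed line; centring on the spike-in controls (red squares) moves every gene down by 0.28.

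The direction of single members depended on the scaling. When ratios were centred on the 9 spike-in controls, whose mean log2 ratio was 0.28 (SD 0.28), all genes moved down together and the median of all genes with a value became -0.30. Under that scaling Mmp2, Mmp14, Timp1 and Timp2 had log2 ratios of -0.23, -0.13, -0.20 and -0.13. Relative to the median of all genes the members' median was 0.09 higher, which this centring cannot change because it lowers every gene equally. Under the other settings it was 0.06 to 0.11 higher. The noted cRNA amounts also differed, 12.5 µg for portal hypertension and 17 µg for sham, and their part in the spike-in ratios was not tested. Timp3 had 0.01 after quantile normalization. Plau stayed above 0, from 0.08 to 0.44, and Plat below 0, from -0.40 to -0.11. Each has 1 probe set, above every floor used. Only quantile normalization, the loess and the spike-in centring could therefore move them, and the other settings were no check. A2m stayed below 0, from -0.34 to -0.03, although its probe sets pointed both ways.

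Beyond these 9 genes, a list of 64 other genes of proteolysis around the cell was described. It covers further metalloproteinases and adamalysins, regulators, the plasminogen system, clearance receptors with macroglobulins, and cathepsins with their inhibitor. Of the 64, 36 had a probe set with that single symbol, 23 had a value and 13 were below the floor on every probe set. The other 28, among them Lrp1, Reck and Timp4, were not analysed here. Of the 23 genes, 13 had ratios above 0 and 10 below it, with a median of 0.08 against -0.02 for all genes. The list's median turned to -0.08 with the floor at the 20th percentile (31 genes) and -0.09 without a floor (36 genes), and it was 0.01 after quantile normalization, as was that of all genes. At 1.5-fold 0 were higher and 2 were lower, where 3.13% of the 3351 genes with a value were higher and 5.04% lower.

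The 2 genes past 1.5-fold were Adam10 and Furin. Adam10, which encodes a membrane protease that sheds cell surface proteins, had 706.5 in the portal hypertension pool and 1099.1 in the sham pool, a log2 ratio of -0.64. It fell short of 1.5-fold after quantile normalization, at -0.55, after a loess trend was removed, at -0.57, and with the floor at the 60th percentile, at -0.30. Adam17, the only other listed adamalysin with a probe set, is named after its value was seen. It had 1057.2 in the portal hypertension pool and 1486.7 in the sham pool, a log2 ratio of -0.49, short of 1.5-fold. Furin, the proprotein convertase that activates Mmp14, had a median of -0.59 over 2 probe sets. Of these, X55660_at had 346.2 in the portal hypertension pool and 847.2 in the sham pool, and X55660_g_at had 1756.9 in the portal hypertension pool and 1629.3 in the sham pool. The log2 ratios were -1.29 and 0.11, so the direction for Furin was not settled.

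The other metalloproteinase genes were mostly below the floor. Of 9 with a probe set, 6 had no value, including the stromelysin gene Mmp3, the macrophage elastase gene Mmp12 and the collagenase gene Mmp13. Mmp3 had 243.4 in the portal hypertension pool and 316.8 in the sham pool. Mmp12 had 112.1 in the portal hypertension pool and 146.3 in the sham pool, and Mmp13 had 58 in the portal hypertension pool and 58.2 in the sham pool. Mmp11 had 389.8 in the portal hypertension pool and 347.5 in the sham pool, a log2 ratio of 0.17. Mmp16, which encodes a membrane-type enzyme and was picked after its value was seen, had 689.1 in the portal hypertension pool and 1005.1 in the sham pool, a log2 ratio of -0.54. Mmp23, the remaining gene with a value and likewise named after it was seen, went the other way. It had 4856.3 in the portal hypertension pool and 4235.8 in the sham pool, a log2 ratio of 0.20.

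In the plasminogen system 5 genes had a value, 3 above 0 and 2 below it, with a median of 0.08. Plaur, the urokinase receptor gene, had 504.2 in the portal hypertension pool and 647.8 in the sham pool, a log2 ratio of -0.36, opposite in sign to that of Plau and likewise inside the scatter at low level. Anxa2 and S100a10 form the cell surface complex that binds plasminogen and tissue plasminogen activator, and they had log2 ratios of 0.23 and 0.08. Plg, the plasminogen gene itself, which is expressed mainly in liver, had 32.6 in the portal hypertension pool and 61.2 in the sham pool, below the floor in both. Bsg, which encodes an inducer of metalloproteinases, had 11727.5 in the portal hypertension pool and 10045.5 in the sham pool, a log2 ratio of 0.22.

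**Figure D5:**
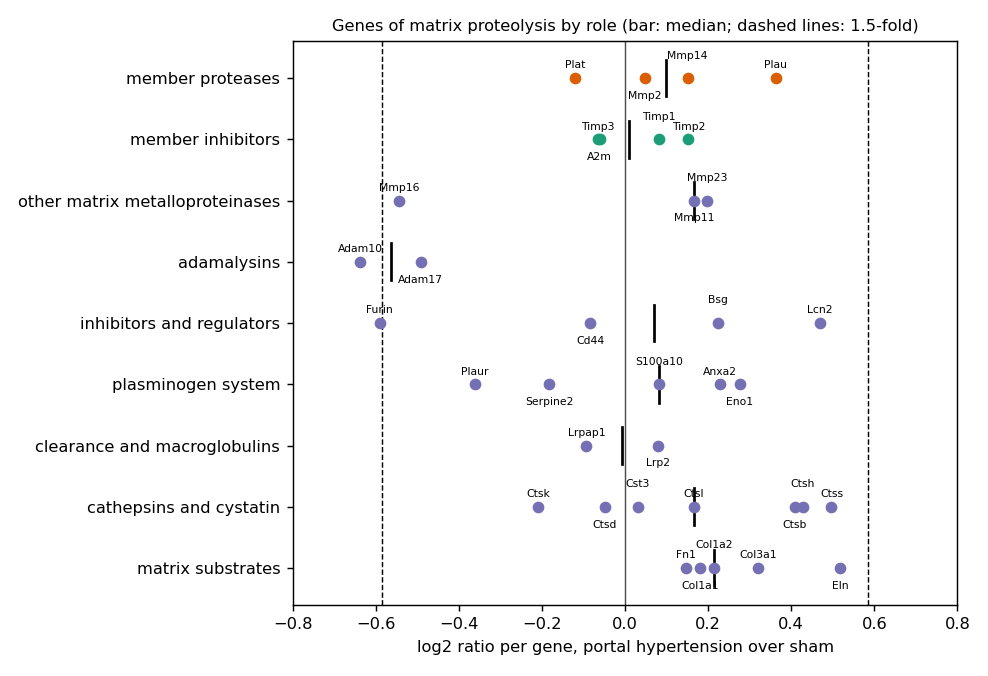
Log2 ratio per gene of portal hypertension over sham (horizontal axis) for the members, the 23 listed genes with a value and 5 matrix substrates, in rows by role, with the row median as a bar and dashed lines at 1.5-fold. Of the genes plotted, Adam10 and Furin lie at or past a dashed line.

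Cathepsins, the lysosomal proteases that also cut matrix, had a value for all 7 listed genes including the cystatin. Of these, 5 were above 0 and 2 below it, and the median was 0.17. The cysteine cathepsin genes Ctss, Ctsh and Ctsb, picked after their values were seen, had log2 ratios of 0.50, 0.43 and 0.41. These were the highest of the 7, and each lay outside 1 SD of the scatter for probe sets of high level, 0.22. The 2 genes below 0, likewise named after their values were seen, were Ctsk at -0.21, inside that scatter, and Ctsd at -0.05. The probe sets of Ctsd went both ways. Cst3, the gene of the secreted cysteine protease inhibitor cystatin C, had 0.14 and -0.07 on its 2 probe sets. Macrophage markers, a list that also holds Ctss, had a summed signal of 58050.6 in the portal hypertension pool and 47985.1 in the sham pool over 11 probe sets. Ctss alone gave 16506.3 of the first sum and 11698.7 of the second, so the sums are not separate from the cathepsin values. Of the 5 macrophage genes with a value 3 were above 0, Ctss among them, with a median of 0.21, while Csf1r was below the floor. The part of macrophages in the cathepsin values was not tested.

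The 5 matrix genes with a value, whose products these proteases cut, had log2 ratios above 0 at the deposited scaling. Eln, the elastin gene, had 39725.8 in the portal hypertension pool and 27759.3 in the sham pool, a log2 ratio of 0.52, and Col3a1 and Col1a2 had 0.32 and 0.21. Eln was outside and Col1a2 inside 1 SD of the scatter for probe sets of high level, 0.22. Col1a1 had 0.18 as the median of 4 probe sets and Fn1 0.15 as the median of 3, and in both genes the probe sets went both ways. Centring on the spike-in controls lowers every gene by 0.28, which takes Col1a2, Col1a1 and Fn1 below 0. At 1.5-fold 0 of these 5 genes were called, where 3.13% of the 3351 genes with a value were higher and 5.04% lower. So few genes make that count no result about them. Fibroblast markers, which include the 3 collagen genes, had a summed signal of 605919.5 in the portal hypertension pool and 557660.5 in the sham pool over 18 probe sets. Of these 7 genes 6 were above 0, with a median of 0.21, which equals the Col1a2 value. The sum and the median thus partly repeat the collagen values and are no separate reading of fibroblasts. The part of fibroblasts in the matrix values was not tested.

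The label of the tissue was checked against smooth muscle markers. Of 6 listed genes, 5 had a probe set and all 5 had a value, with a summed signal of 427586.1 in the portal hypertension pool and 441438.4 in the sham pool. All listed mesothelial genes with a probe set (Wt1, Krt19 and Krt8) were below the floor. Adipocyte markers had a summed signal of 109215.4 in the portal hypertension pool and 89383 in the sham pool, with 4 of 5 valued genes above 0. Mast cell markers had 17805.3 in the portal hypertension pool and 10658.9 in the sham pool. Of their 4 genes with a value 3 were above 0, with a median of 0.46, while Kit was below the floor. At least 1.5-fold higher were 2 of the 4, against 3.13% of the 3351 genes with a value. The part of both cell types in the members' values was not tested. The pools also differed in the labelled cRNA put on the array, noted with a question mark as 12.5 µg for portal hypertension and 17 µg for sham, and in the fluidics module, so neither can be told apart from the operation.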

How the data were processed

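Per the labels, RNA was prepared with TRIzol followed by an RNeasy clean-up, and each group was pooled. The deposited table gives a linear intensity for every probe set on each array. How the authors corrected background and scaled these intensities is stated in none of the sources read. After trimming 2% of values at each end, the means were 2504.38 in the portal hypertension pool and 2504.33 in the sham pool, so no further scaling was applied. The medians were 525.7 in the portal hypertension pool and 557 in the sham pool, with 59.42% and 60.57% of signals above the floor. The ratio of 3' to 5' control signal was 1.79 in the portal hypertension pool and 2.05 in the sham pool for actin. For Gapdh it was 1.85 and 1.83. Array type, cRNA amount and module come from the file headers.

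Names came from the platform annotation (7018 probe sets with 1 symbol, 308 with several and 1473 with none), and a RefSeq gene table (rat assembly GRCr8) changed 0 symbols. No build is named for the array, so no coordinates are given. Control probe sets (59) were left out of all counts. A gene's value was the median log2 ratio over its probe sets above the floor in at least 1 pool. Python 3.11.15, pandas 2.3.3 and statsmodels 0.14.6 (lowess, fraction 0.4) were used, and the functions were tested on simulated data. The simulation changed only probe sets well above the floor, by more than any member ratio here, and with less scatter than these data. It therefore does not show how well small differences or low signals are recovered.

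No test can be run on 1 array per group, so differences were counted at 1.5-fold and 2-fold. The members, lists and settings were chosen with earlier results of these data known. Named genes were all members, listed genes past 1.5-fold, a fixed set of listed genes (among them Serpine2, Plaur, Plg, Lrp1, Bsg, Reck, Cst3, Anxa2, S100a10, Timp4, Mmp3, Mmp11, Mmp12, Mmp13) and the matrix substrates. Others are marked as picked after their values were seen.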

Additional observations from a re-analysis of the deposited data

How the results depend on the processing

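The number of arrays and the signal over background limit these results, and low signals most. The members' median log2 ratio was 0.06 by gene and 0.08 by probe set. Centring on the spike-in controls turned them to -0.22 and -0.20, with the median of all genes at -0.30, and leaving out probe sets that may share sequence turned the median by probe set to -0.06. The count of member probe sets at least 1.5-fold higher became 1 when the floor was lowered to the 20th percentile and 1 without a floor (A2m M23566exon_s_at, at a log2 ratio of 0.66). The count of those lower became 1 after centring on the spike-in controls (A2m rc_AA900582_at, at -0.76) and 1 without a floor (A2m rc_AI113046_at, at -1.67). At 2-fold with the reported floor both counts were 0. Of the 64 listed genes, the number higher became 1 under the lower floor and without a floor. The number lower, 2 as reported, was 0 at 2-fold, after quantile normalization, after the loess and when the floor was raised to the 60th percentile. It was 1 when each gene was read from its brightest probe set, 5 after centring on the spike-in controls, 5 under the lower floor and 8 without a floor. Furin turned to 0.11 under the raised floor, where X55660_at had no value, and when it was read from its brightest probe set, and it was -1.29 when X55660_g_at was left out as sharing sequence. No paired analysis was possible because each group is 1 pool, and for the same reason no array could be left out. Leaving out probe sets that may share sequence with others was added after the data were seen.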
